A study of Homo sapiens with 3 samples.

Results

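The BCL2 family decides whether the outer mitochondrial membrane of a cell is breached during apoptosis. Its anti-apoptotic members bind and restrain the others, its effectors form the pores, and the BH3-only members, named after the short BCL2 homology stretch they carry, free or activate the effectors. In leukaemia cells of myeloid origin, survival is known to lean on BCL2 and MCL1. Cells stalled in mitosis by drugs that act on microtubules are known to lose MCL1 protein, a step that transcript counts do not measure.

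Described here are 10 genes of this family out of 20332 genes in the expression table. They were taken by symbol: the anti-apoptotic BCL2, BCL2L1, MCL1 and BCL2A1, the effector BAK1, and the BH3-only BID, BAD, BCL2L11, BMF and PMAIP1. The cells were MV-4-11, an established human leukaemia line labelled as biphenotypic B-myelomonocytic and as wild type in genotype, and known to carry an activating duplication in its receptor gene FLT3. They were grown in IMDM medium with 10% FBS and either left untreated for 1 day or given FL-Fc-DM1 for 1 day, at 0.5 nM or at 1.5 nM. By its name this agent carries FLT3 ligand, an antibody Fc portion and DM1, a maytansine-type drug that binds tubulin. Polyadenylated RNA was sequenced, with 1 library in each of the 3 groups.

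No difference has a replicate check, since each group is 1 library, and each ratio describes a pair of libraries rather than the conditions. No test was run, and a library given as higher or lower is described, not called changed. Intervals in square brackets are exact 95% intervals for counting error alone, in which PCR copies are treated as if they were separate molecules. In bulk RNA, fewer cells of a kind and less RNA per cell cannot be told apart. Columns were matched to doses by the order of the numbers in their names, so an exchange of those columns would exchange every statement on the doses.

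The BH3 stretch is shown first, because it is what the BH3-only members share with the rest of the family. The motif searched was a leucine, any 3 residues, then glycine, alanine or serine, then aspartate, in the translated coding sequence of GENCODE release 29 (GRCh38). At least 1 match was found in 9 of the 10 members. Where coding transcripts of a gene differed, a transcript with the motif was taken before those without it. How often so short a motif occurs in other proteins was not counted. Each line gives the coding strand over 42 bases, 5′ to 3′, with the 18 bases of the motif in capitals and 4 codons on either side. The match in BID is the last of 2, the one at the known BH3 stretch.
BCL2, anti-apoptotic, chr18:63318349-63318390, minus strand: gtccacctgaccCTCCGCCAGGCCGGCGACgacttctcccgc
BCL2L1, anti-apoptotic, chr20:31721922-31721963, minus strand: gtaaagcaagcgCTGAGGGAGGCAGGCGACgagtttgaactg
MCL1, anti-apoptotic, chr1:150578865-150578906, minus strand: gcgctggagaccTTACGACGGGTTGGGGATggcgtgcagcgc
BAK1, effector, chr6:33575387-33575428, minus strand: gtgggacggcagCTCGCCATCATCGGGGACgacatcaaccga
BID, BH3-only, chr22:17739415-17739456, minus strand: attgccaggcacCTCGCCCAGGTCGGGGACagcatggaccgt
BAD, BH3-only, chr11:64271622-64271663, minus strand: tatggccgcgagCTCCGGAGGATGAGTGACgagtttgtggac
BCL2L11, BH3-only, chr2:111150091-111150132, plus strand: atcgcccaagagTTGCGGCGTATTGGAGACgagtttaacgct
BMF, BH3-only, chr15:40104195-40104236, minus strand: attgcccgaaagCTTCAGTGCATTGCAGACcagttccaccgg
PMAIP1, BH3-only, chr18:59902661-59902702, plus strand: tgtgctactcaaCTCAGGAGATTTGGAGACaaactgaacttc

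Each window lies within 1 coding exon. Over the 36 pairs of these 9 windows, between 7 and 14 of the 18 motif bases were the same, the most for BAK1 with BID and for BCL2 with BID. Part of this likeness was set by the search, since every window was found with the same motif. No match was found in the 2 coding transcripts of BCL2A1 that were searched, which says only that these residues do not occur there in this order. For BCL2L11, 9 of 14 coding transcripts held the motif, for BMF 4 of 7, for BID 6 of 11, for BAD 2 of 4 and for PMAIP1 1 of 2. For BID, a transcript with either of the 2 matches was counted, not only one with the known BH3 stretch. The deposited values are per gene, so for these 5 members transcripts with and without the motif are added together in every value below. All 3 coding transcripts of BCL2, of BCL2L1, of MCL1 and of BAK1 held it. BCL2L1 and MCL1 are each known to make long and short proteins of opposite effect, which values per gene do not separate.

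The libraries held 22329953 estimated counts untreated, 16427206 at 0.5 nM and 16864857 at 1.5 nM. All 11 myelomonocytic markers listed for the line were measured, and their summed level was between 3739 and 4510 CPM, counts per 1000000, in the 3 libraries. The erythroid markers were at 0 in every library, as were CD3D, CD3E and CD3G of the T cell list and EPCAM of the epithelial list, while the B cell list, with MS4A1 at 0 and none of its 4 genes measured, summed to between 0.727 and 1.18 CPM, and the epithelial list to between 4.41 and 6.49 CPM. The fibroblast list stayed at 0.484 CPM or less. The 1.5 nM library stood apart in 50 genes that had 2 or fewer counts there and 10 or more in each of the others, with summed levels of 51.2 CPM untreated, 60.4 CPM at 0.5 nM and 1.88 CPM at 1.5 nM. None of the 10 family members is among them, and the part of this difference in the members' values was not tested.

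Per unit of length, MCL1, BID and BCL2 were the most abundant members in all 3 libraries, and BCL2A1 was close to absent. The levels in this paragraph and the next are the deposited TPM, which are scaled to gene length and so can be compared between genes. In untreated cells BID stood at 117.1 TPM and MCL1 at 116.9 TPM, a ratio of 1.00 [0.949, 1.06], so that the first and second place cannot be told apart. BCL2 followed at 69.045 TPM, and BAK1 at 34.0 TPM. PMAIP1 at 25.4 TPM and BCL2L11 at 24.7 TPM were also inseparable by counting error, at a ratio of 1.03 [0.928, 1.14]. BMF at 20.1 TPM, BCL2L1 at 17.6 TPM and BAD at 13.6 TPM came next, each below the one before by more than counting error. Among all genes listed above 0 TPM in the untreated library, BID and MCL1 stood at the 90.6th and 90.5th percentile, BCL2 at the 83.2nd and BAD at the 50.2nd.

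In the treated libraries the upper part of this order stayed close to that in untreated cells, and BMF moved up. At 0.5 nM MCL1 led with 144.4 TPM, ahead of BID with 109.2 TPM by 1.32 [1.24, 1.41]. BMF, with 28.9 TPM, stood in the fifth place there, level with BCL2L11 at 28.5 TPM, a ratio of 1.01 [0.927, 1.11]. At 1.5 nM MCL1 at 128.1 TPM and BID at 122.1 TPM were again within counting error, at 1.05 [0.988, 1.11]. BMF at 24.3 TPM kept the fifth place, ahead of PMAIP1 at 21.4 TPM by 1.13 [1.00, 1.29]. Below it, PMAIP1, BCL2L11 at 21.1 TPM, BCL2L1 at 19.8 TPM and BAD at 16.7 TPM were each within counting error of the neighbour in this order, and BCL2A1 lay far below BAD at 0.179 TPM.

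**Figure D1:**
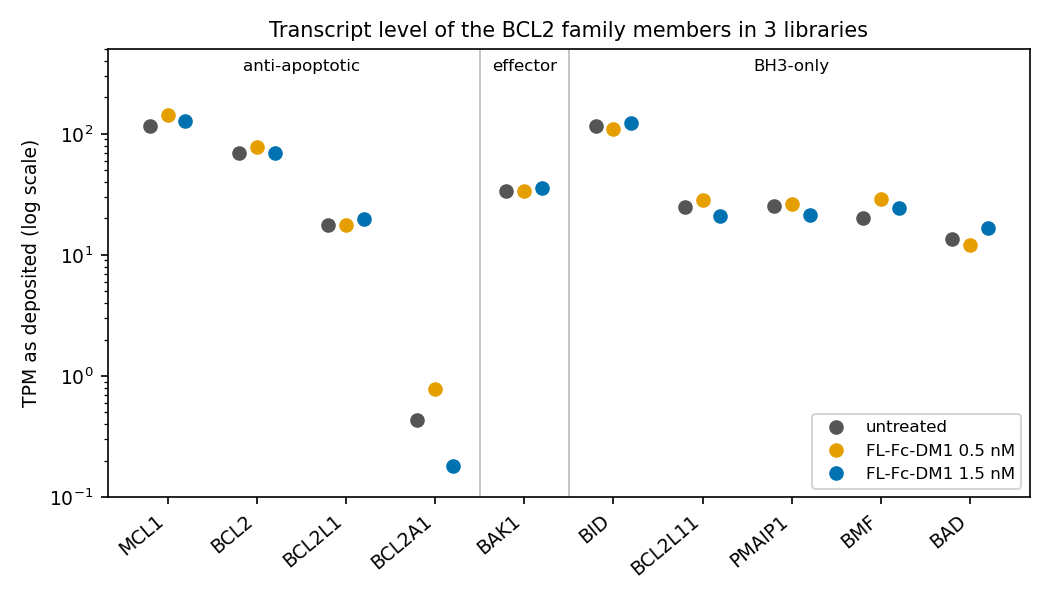
Deposited TPM (log scale) of the 10 members, grouped by role, with 1 point per library. MCL1, BCL2 and BID lie highest in all 3 libraries, and BCL2A1 lies at or below 0.785 TPM.

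Of the anti-apoptotic members, MCL1 stood higher at both doses and most at 0.5 nM, while BCL2 differed from untreated by 5.3% or less. From here on, levels are CPM scaled with TMM and ratios are log2 ratios of them. MCL1, whose short-lived protein binds BCL2L11, PMAIP1 and BAK1 products, had 233.5 CPM untreated, 270.7 CPM at 0.5 nM and 248.4 CPM at 1.5 nM. Both treated libraries lay above the untreated one, and the 0.5 nM library was the highest. Its log2 ratio was 0.21 [0.15, 0.27] at 0.5 nM and 0.09 [0.03, 0.15] at 1.5 nM. Among the ratios of all genes analysed, MCL1 stood at the 86.0th percentile at 0.5 nM and the 65.5th at 1.5 nM. BCL2, the target of the drug venetoclax, had 234.0, 246.3 and 226.1 CPM in the same order, with log2 ratios of 0.07 [0.01, 0.13] and -0.05 [-0.11, 0.01]. The 0.5 nM library was the highest for BCL2 as well, and the 1.5 nM library the lowest. On the TPM scale the 0.5 nM ratio was 0.30 for MCL1 and 0.17 for BCL2, both above their count intervals, where the median of all genes on that scale was 0.06.

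BCL2L1, which encodes BCL-xL, was the least abundant in CPM of the anti-apoptotic members that were measured. It had 22.3 CPM untreated, 21.3 CPM at 0.5 nM and 24.7 CPM at 1.5 nM, with the 1.5 nM library the highest. The log2 ratios to untreated, -0.07 [-0.27, 0.13] and 0.14 [-0.05, 0.33], lay within counting error. BCL2A1, an NF-kB target gene in other cells, had 4 counts untreated, 5 at 0.5 nM and 1 at 1.5 nM. The exact Poisson intervals of these counts, 1.09 to 10.2, 1.62 to 11.7 and 0.0253 to 5.57, overlap, and no difference was detectable at this depth. BCL2A1 failed the minimum of a mean of 1 CPM and enters no count of members below.

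BAK1, the only effector among the members, forms pores in the outer membrane once freed from MCL1 and BCL-xL. It had 37.9 CPM untreated, 36.1 CPM at 0.5 nM and 38.8 CPM at 1.5 nM. The 3 libraries lay close together, with log2 ratios to untreated of -0.07 [-0.22, 0.08] and 0.03 [-0.12, 0.18].

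The BH3-only members went different ways: BMF stood higher at both doses, BCL2L11 and PMAIP1 stood lower at 1.5 nM alone, and BID differed by 6.2% or less. BMF and BCL2L11 encode sensor proteins that are known to be tethered to the cytoskeleton through dynein light chains, BMF at actin-based motors and BIM, the product of BCL2L11, at microtubules. BMF (ENSG00000104081) had 40.8 CPM untreated, 57.6 CPM at 0.5 nM and 51.5 CPM at 1.5 nM. Both treated libraries lay above the untreated one. The log2 ratio was 0.49 [0.36, 0.63] at 0.5 nM, which is 1.41-fold, and 0.34 [0.20, 0.47] at 1.5 nM, which is 1.26-fold. Part of the BMF exons overlaps an antisense gene that is absent from the expression table. The use of strand is not stated, so antisense reads may be counted with BMF. Among the 11322 genes analysed, BMF stood at the 96.5th percentile of the ratios at 0.5 nM and the 88.6th at 1.5 nM.

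BCL2L11 (ENSG00000153094) had 57.5 CPM untreated, 58.4 CPM at 0.5 nM and 47.4 CPM at 1.5 nM. The untreated and 0.5 nM libraries were level, and the 1.5 nM library lay below both. Its log2 ratio was 0.02 [-0.10, 0.14] at 0.5 nM and -0.28 [-0.41, -0.15] at 1.5 nM. The exons of BCL2L11, like those of BCL2L1 and BAK1, also overlap an antisense gene. On the TPM scale the 0.5 nM ratio was 0.20, above the count interval, and the 1.5 nM ratio was -0.22. PMAIP1 (ENSG00000141682), also called NOXA, encodes a protein that binds mainly MCL1 and is a p53 target. It had 24.5 CPM untreated, 24.5 CPM at 0.5 nM and 20.4 CPM at 1.5 nM, with the same order as BCL2L11 in that only the 1.5 nM library lay apart. The log2 ratios were 0.00 [-0.19, 0.19] and -0.27 [-0.47, -0.07]. At 1.5 nM BCL2L11 stood at the 11.3rd and PMAIP1 at the 12.3rd percentile of all genes analysed, of which 13.6% lay at -0.25 or less.

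BID, whose protein is cleaved downstream of death receptors, had 82.3 CPM untreated, 77.1 CPM at 0.5 nM and 83.5 CPM at 1.5 nM. Its log2 ratios, -0.09 [-0.20, 0.01] and 0.02 [-0.08, 0.12], lay within counting error. BAD, whose protein binds BCL2 and BCL-xL and is held inactive by phosphorylation, had 6.49 CPM untreated, 5.45 CPM at 0.5 nM and 7.12 CPM at 1.5 nM. The 0.5 nM library was the lowest, and the ratios of -0.25 [-0.65, 0.14] and 0.13 [-0.23, 0.49] lay within counting error. BAD is uncertain because its estimated counts were not whole, at 143.49, 89.77 and 120.88. Its exons overlap those of GPR137 on the opposite strand over 404 bases, and the counts of both genes added up to 249 untreated, 164 at 0.5 nM and 197 at 1.5 nM, all whole numbers.

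**Figure D2:**
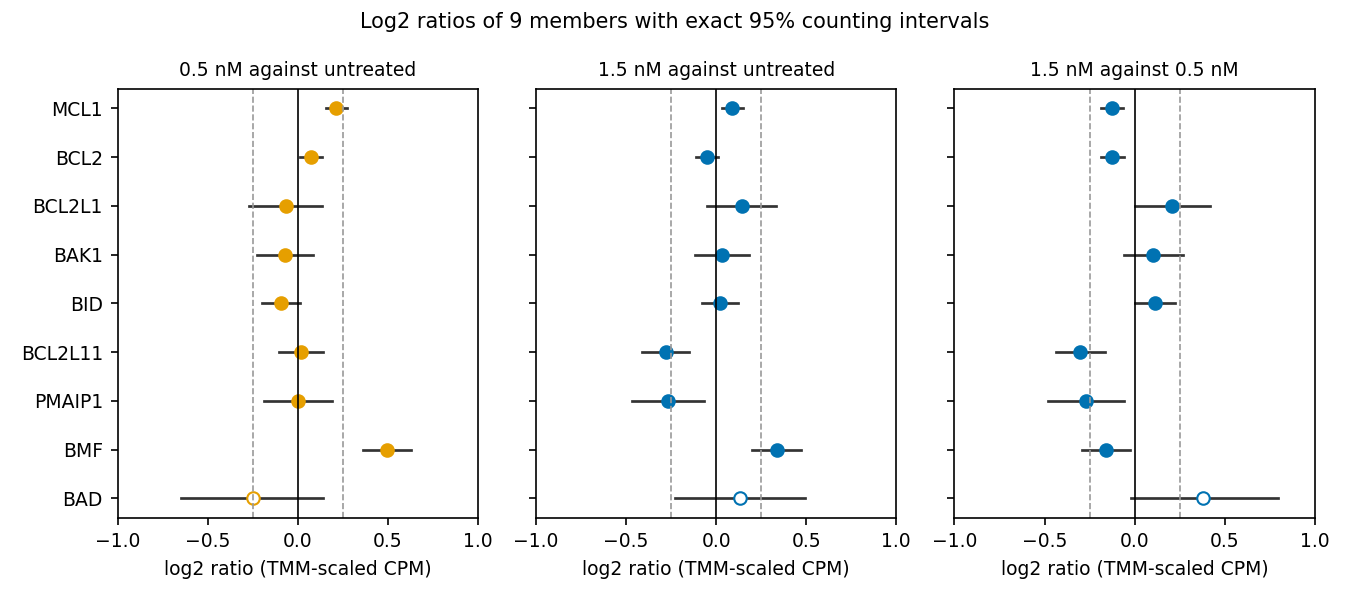
Log2 ratios of TMM-scaled CPM for the 9 measured members in the 3 comparisons, with lines for exact 95% counting intervals, dashed lines at 0.25 and -0.25, and an open point for BAD, whose counts were not whole. BMF lies beyond 0.25 at both doses against untreated, and BCL2L11 and PMAIP1 lie beyond -0.25 at 1.5 nM.

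No measured member was 2-fold higher or lower in any comparison. At 0.5 nM against untreated, 0 of 9 members passed 2-fold, where 0.76% of all genes did. A smaller step of 0.25 on the log2 scale, 1.19-fold, was passed upward by 1 of 9 members, BMF, against 10.9% of all genes, and downward by 0 of 9, against 7.68%. The median of the members was 0.00, and so was that of all genes. Above 0 were 5 members, and below it 4, where 50.6% of all genes lay above 0. At 1.5 nM against untreated, 0 of 9 passed 2-fold, against 2.04% of all genes. The smaller step was passed upward by BMF alone, against 16.2% of all genes, and downward by BCL2L11 and PMAIP1, against 13.6%. The median was 0.03 over the members and 0.00 over all genes. Above 0 were 6 members, and below it 3, where 49.8% of all genes lay above 0. With so few members, counts of 0 to 2 do not stand apart from these background shares. PMAIP1 did not pass the smaller step on the TPM scale, with total counts or with the GC trend removed, at -0.24, -0.24 and -0.23, and BCL2L11 did not pass it on the TPM scale, at -0.22.

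Between the 2 treated libraries, 5 of the 9 measured members stood lower at 1.5 nM than at 0.5 nM and 4 stood higher. Of all genes analysed, 50.1% stood higher, so this split does not stand apart from the background. The comparison asks whether the higher dose differs from the lower one. BCL2L11 had a log2 ratio of -0.30 [-0.44, -0.16], and PMAIP1 had -0.27 [-0.48, -0.06]. BMF had -0.16 [-0.29, -0.03], and MCL1 and BCL2 each had -0.12, with intervals of [-0.18, -0.06] and [-0.19, -0.06]. In the other direction, BCL2L1 had 0.21 [0.00, 0.42], BID 0.11 [0.00, 0.22] and BAK1 0.10 [-0.06, 0.27], while BAD had 0.38 [-0.02, 0.80]. Of the 9 members, 0 passed 2-fold, against 0.972% of all genes. The step of 0.25 was passed upward by 1 of 9, the uncertain BAD, against 12.6%, and downward by 2 of 9, against 11.0%. The median was -0.12 over the members and 0.00 over all genes.

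The ratios between the treated libraries were higher for genes of higher transcript GC content, with a Spearman correlation of 0.40 across 11252 genes that share these libraries. The 4 members that stood higher at 1.5 nM than at 0.5 nM were BAD, BAK1, BCL2L1 and BID, with GC contents of 66.3%, 58.8%, 56.9% and 49.7%. BMF, at 54.8%, stood lower, as did BCL2L11, BCL2, MCL1 and PMAIP1, at 45.7%, 45.6%, 45.1% and 37.2%. With the GC trend removed, BAD had 0.21 and BAK1 0.00, BCL2L11 kept -0.28, PMAIP1 had -0.16, and BMF had -0.22. The correlation was -0.27 at 0.5 nM and 0.13 at 1.5 nM against untreated. With that trend removed, BMF had 0.54 and 0.32 against untreated and MCL1 had 0.20 and 0.11.

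**Figure D3:**
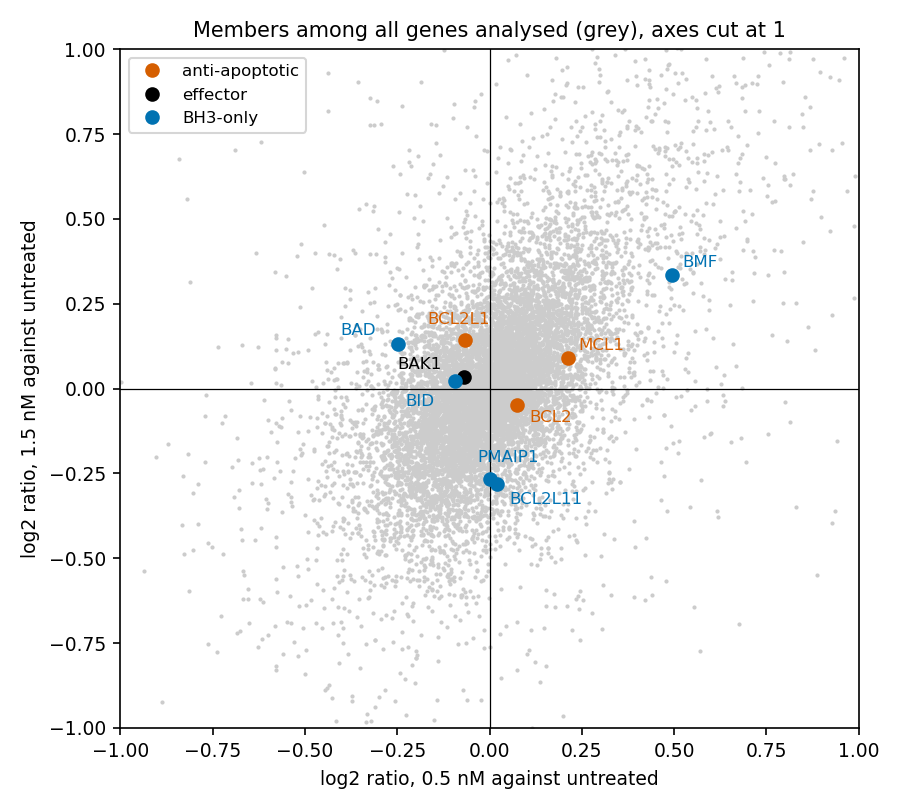
Log2 ratio at 0.5 nM (x axis) and at 1.5 nM (y axis) against the shared untreated library, for all genes analysed (grey points) and the 9 measured members by role. BMF lies at 0.49 and 0.34 in the upper right, and PMAIP1 and BCL2L11 lie at 0.00 and 0.02 on the x axis and at -0.27 and -0.28 on the y axis. Both axes share the untreated library, so the slope of the grey cloud is no result.

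Within each library 7 ratios between members were formed, 5 of a BH3-only member to an anti-apoptotic one, which such proteins bind, and 2 between BH3-only members. They do not depend on library scaling and were chosen after the values were seen. BMF had the highest log2 ratio of the measured members at both doses. Its ratio to each of the 4 members it was set against therefore had to be higher. These 4 ratios share the BMF counts and are not separate observations. The TPM ratio of BMF to BCL2 was 0.291 untreated, 0.371 at 0.5 nM and 0.347 at 1.5 nM. In counts this ratio was 1.34-fold [1.21, 1.48] that of untreated cells at 0.5 nM and 1.31-fold [1.18, 1.45] at 1.5 nM. For BMF to MCL1 the folds were 1.22 [1.10, 1.35] and 1.19 [1.07, 1.31].

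The ratios of BCL2L11 and PMAIP1 to MCL1 went the other way. At 0.5 nM BCL2L11 and PMAIP1 were themselves level with untreated, with log2 ratios of 0.02 and 0.00, while MCL1 had 0.21. At 1.5 nM they had -0.28 and -0.27, the lowest of the measured members, and MCL1 had 0.09. Their ratios to the anti-apoptotic members they were set against therefore had to be lower at 1.5 nM. The ratios to MCL1 share the MCL1 counts and are not separate observations. The TPM ratio of PMAIP1 to MCL1 was 0.217 untreated, 0.183 at 0.5 nM and 0.167 at 1.5 nM, and the count ratio was 0.863-fold [0.752, 0.990] and 0.781-fold [0.676, 0.901] that of untreated cells. For BCL2L11 to MCL1 the folds were 0.875 [0.797, 0.961] and 0.774 [0.701, 0.854]. BCL2L11 to BCL2 was within counting error at 0.5 nM, at 0.964 [0.877, 1.06], and lower at 1.5 nM, at 0.852 [0.7715, 0.9404]. BMF to BCL2L11 was 1.39-fold [1.23, 1.58] and 1.53-fold [1.346, 1.747] that of untreated cells. At 1.5 nM this pair sets the highest log2 ratio of the measured members against the lowest. In TPM, BMF was below BCL2L11 in untreated cells, at a ratio of 0.814, and above it at 1.5 nM, at 1.15.

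**Figure D4:**
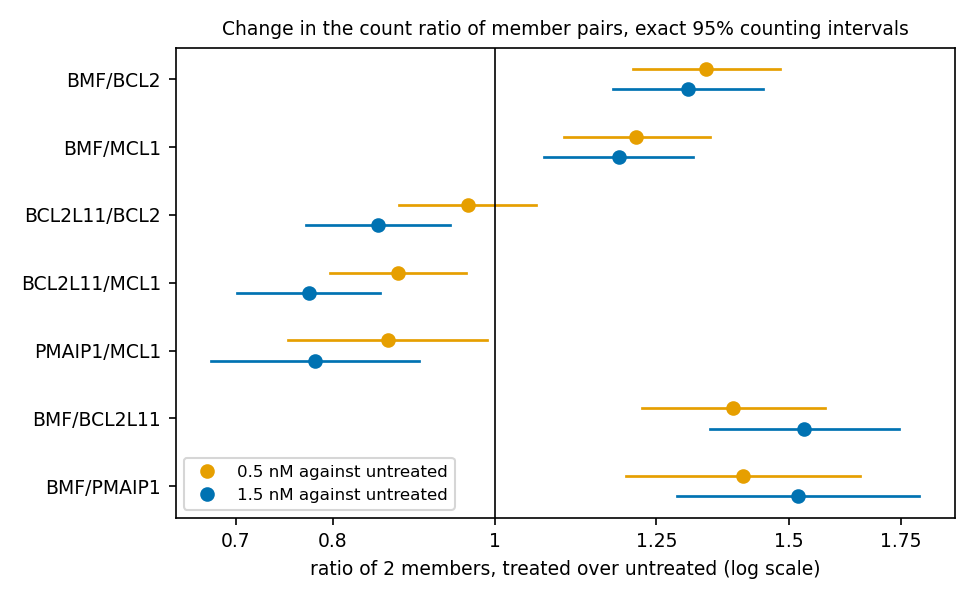
Ratio of 2 members in a treated library divided by the same ratio in the untreated library, from counts (log scale), with exact 95% counting intervals. The ratios of BMF to the other 4 members lie above 1 at both doses, and those of BCL2L11 and PMAIP1 to MCL1 lie below 1. The pairs share members and were chosen after the values were seen, so they are not separate observations.

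Summed by role, the 4 anti-apoptotic members held 203.9 TPM untreated, 240.7 TPM at 0.5 nM and 218.0 TPM at 1.5 nM. MCL1 made up 57.3%, 60.0% and 58.8% of these sums. The 5 BH3-only members held 200.9, 205.0 and 205.6 TPM, of which BID made up 58.3%, 53.2% and 59.4%. The sum of these anti-apoptotic members was thus 1.02 times, 1.17 times and 1.06 times that of these BH3-only members. Other measured genes of the family are outside these sums, such as BCL2L2, BIK and BBC3, with 14.6, 21.0 and 2.88 TPM untreated. A ratio this near 1 therefore holds for the listed members alone, and it has no interval. The library at 0.5 nM had the highest anti-apoptotic sum, and the BH3-only sums differed by less than 5 TPM. The median TPM log2 ratio of all genes at 0.5 nM was 0.06.

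The rest of the family, 13 further genes, was measured for 8. BNIP3L, which encodes a mitophagy receptor, had 85.1 CPM untreated, 106.3 CPM at 0.5 nM and 106.1 CPM at 1.5 nM. Both treated libraries were level and above the untreated one, with log2 ratios of 0.32 [0.23, 0.42] and 0.32 [0.22, 0.41]. BBC3, also called PUMA and a p53 target like PMAIP1, had 54 counts untreated, 58 at 0.5 nM and 45 at 1.5 nM, and its ratios of 0.50 [-0.04, 1.08] and 0.11 [-0.49, 0.71] lay within counting error. The effector gene BAX had 55.5, 53.8 and 57.1 CPM, with ratios of -0.05 [-0.17, 0.08] and 0.04 [-0.08, 0.16].

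BCL2L13, whose product sits in the outer membrane, had ratios of 0.04 [-0.05, 0.13] and 0.15 [0.06, 0.24]. BIK, BNIP3 and BCL2L2 lay within counting error at both doses, at 0.02 and 0.08, at 0.11 and 0.10, and at -0.03 and -0.10. BCL2L12 had -0.26 [-0.44, -0.10] and -0.01 [-0.17, 0.15]. The counts of BCL2L2 and BCL2L12 were not whole, so both are uncertain. Of the 8 genes, 2 passed 0.25 upward and 1 downward at 0.5 nM, against 10.9% and 7.68% of all genes. At 1.5 nM 1 and 0 did so, against 16.2% and 13.6%. The other 5, BOK, HRK, BCL2L10, BCL2L14 and BCL2L15, had at most 18 counts in any library.

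Among 25 genes known to act on transcripts or proteins of the family, 0 passed 0.25 upward and 1 downward at 0.5 nM, against 10.9% and 7.68% of all genes. At 1.5 nM 3 and 2 did so, against 16.2% and 13.6%, and the medians were -0.04 and -0.03. These counts do not stand above the background shares, and the 3 genes that follow are those with the largest ratios at 1.5 nM. CDK1, the mitotic kinase that marks MCL1 and BCL-xL proteins with phosphate, had 220.3 CPM untreated, 193.6 CPM at 0.5 nM and 154.6 CPM at 1.5 nM, a log2 ratio of -0.51 [-0.58, -0.44] at 1.5 nM. E2F1 had -0.50 [-0.66, -0.35] at 1.5 nM. NFKB1, a subunit of NF-kB, had 0.46 [0.34, 0.58] there. FLT3, the receptor that the ligand binds, had 506.0, 489.1 and 448.3 CPM, with log2 ratios of -0.05 [-0.09, -0.01] and -0.17 [-0.22, -0.13]. Among 16 genes downstream of the mitochondrial membrane or of death receptors, 4 passed 0.25 upward and 0 downward at 0.5 nM, against the same 10.9% and 7.68% of all genes. At 1.5 nM 3 and 2 did so, against 16.2% and 13.6%, and the medians were 0.08 and 0.015. Past 2-fold were 2 of the 16 at 0.5 nM, BIRC3 and FAS, against 0.76% of all genes, and 1 at 1.5 nM, BIRC3, against 2.04%. BIRC3, which encodes an inhibitor of apoptosis, had only 8, 17 and 48 counts, with log2 ratios of 1.27 [0.21, 2.92] and 2.64 [1.87, 4.25]. The death receptor gene FAS had 1.45, 3.33 and 1.94 CPM, with an untreated count that was not whole. Its log2 ratios were 1.14 [0.54, 1.87] and 0.39 [-0.33, 1.17]. CASP8, which encodes the protease that cleaves BID, had 23.7, 26.2 and 29.9 CPM, a log2 ratio of 0.33 [0.16, 0.51] at 1.5 nM.

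BMF had the largest absolute ratio of the measured members at 1.5 nM on the scale of TMM-scaled CPM, while on the TPM scale BAD had 0.27 and BMF 0.26. The genes nearest to it were sought among 6858 genes with whole counts and a mean of 10 or more CPM. Nearness was the Euclidean distance over the 2 log2 ratios to untreated, which share the untreated library. The nearest were CYP4V2 at a distance of 0.03, ARHGEF3 at 0.03, CDC42EP3 at 0.05, RHOBTB3 at 0.06 and STK17B at 0.07. In all, 16 genes lay within 0.1 of BMF. With 3 libraries, such a likeness is a description of these libraries alone.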

How the data were processed

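The authors deposited 1 table for the 3 libraries, with 20332 genes and, per library, estimated counts beside TPM. The estimated counts as deposited are not normalised, and between 12.0% and 12.7% of them per library were not whole. TPM as deposited corrects for gene length. The submitters' processing notes name StringTie 1.3.1, HISAT2, edgeR, DESeq2 and fastp 0.18.0. What each did, the build, the annotation and the use of strand are not stated in those notes. Without strand, reads of antisense partners cannot be told apart.

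Estimated counts were rounded, and 11322 genes were kept at a mean CPM of at least 1. TMM factors from edgeR 4.0.16 under R 4.3.3 were 0.987, 1.005 and 1.008, and log2 CPM used a prior count of 2. With 1 library per group no test was possible. Intervals are exact: Clopper-Pearson for ratios, Poisson for single counts, and conditional odds ratios for member pairs (scipy 1.17.1). A floor of 3 counts corresponds to 0.136 CPM untreated, 0.182 CPM at 0.5 nM and 0.177 CPM at 1.5 nM. Members, lists, thresholds and the rule for named genes were chosen with earlier results of these data known. The rule took all members, the measured rest of the family, up to 3 genes per further list with the largest absolute ratio at 1.5 nM, the 5 genes nearest to the leading member, and FLT3. The steps were tested on simulated counts with Poisson error alone and planted changes larger than any ratio of the members. That test does not show how well differences as small as those of the measured members are found. GC content (for 11252 genes), exons and coding sequence came from GENCODE release 29. The motif search had been planned on RefSeq proteins and was run on translated GENCODE coding sequence instead. Alternatives were total counts, DESeq2 1.42.0 size factors, TPM with a pseudocount of 1, no filter, a mean of 5 CPM, a prior count of 0.5, whole-count genes and removal of a GC trend. TPM ratios and the GC trend for member pairs were added after seeing the data.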

Additional observations from a re-analysis of the deposited data

How the results depend on the processing

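Of the 8 alternatives, no filter, a mean of 5 CPM and whole-count genes change only which genes enter, so no ratio could move there. Under the others, no member ratio beyond 0.25 against untreated changed sign. Of 255 ratios of members and of member pairs under the alternatives, 251 stayed within their counting interval. These include 27, 27 and 24 ratios under those gene selections, which equal the main values by construction. The other 4 moved beyond their interval on the TPM scale: BCL2 and MCL1 at 0.5 nM, BCL2L11 at 0.5 nM and BCL2 at 1.5 nM. Counts of members past 0.25 are small and moved where a ratio lies near that step. At 0.5 nM, 2 members were higher on the TPM scale (BMF and MCL1) and with no filter (BMF and BCL2A1, the latter from 5 counts), and 1 was lower, BAD, with DESeq2 size factors and with a prior count of 0.5. At 1.5 nM, 2 were higher on the TPM scale (BMF and BAD) and 0 lower there, 3 were lower with no filter, which adds BCL2A1, and 1 was lower with total counts and with the GC trend removed. Between the doses, 1 member, BCL2A1, passed 2-fold with no filter, from 1 and 5 counts. There, 0 members were higher with whole-count genes only and with the GC trend removed, 1 was lower with the GC trend removed, and 3 were lower with no filter. The cause was not tested, other than that no filter adds BCL2A1 and whole-count genes leave out BAD. No paired analysis was possible because each group has 1 library, and none could be left out. Depth limits the members BCL2A1 and BAD, and the further family genes with few counts. Over all genes, the counts past 2-fold at 0.5 nM, at 1.5 nM and between the doses were 86, 231 and 110, against 800, 1356 and 1410 with no filter, 34, 77 and 39 on the TPM scale and 16, 58 and 17 at a mean of 5 CPM. The genes higher and lower by 0.25 at 0.5 nM numbered 1239 and 870, against 1485 and 713 with total counts and 1704 and 519 on the TPM scale. At 1.5 nM they numbered 1832 and 1541, against 2096 and 1289 with total counts and 2008 and 1181 on the TPM scale. Between the doses they numbered 1430 and 1251, against 1115 and 1450 on the TPM scale, where the medians of all genes were 0.06, 0.03 and -0.03.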

Other observations

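The estimated counts of BAD and of GPR137, its overlapping neighbour on the opposite strand, were fractions that added up to whole numbers in each of the 3 libraries. BAD held 143.49 of 249, 89.77 of 164 and 120.88 of 197 counts. The part of this division in the ratios of BAD was not tested. Exons of 4 further members overlap an annotated gene on the opposite strand: BCL2L1 over 1424 of 3314 exon bases, BCL2L11 over 727 of 6658, BMF over 461 of 5447 and BAK1 over 91 of 2212. These partners are not analysed here.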
